A study of Mus musculus with 14 samples.

Results

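The insulin-like growth factor binding proteins (IGFBPs) are secreted proteins that bind IGF1 and IGF2, lengthen the life of these ligands outside the cell and decide how much of them reaches the signalling receptor IGF1R. Proteases release bound ligand by cutting the binding proteins, and several family members also act on cells without IGF. The members described here were all 6 genes of the family named Igfbp2 to Igfbp7 that a probe on the arrays listed, found by matching the gene symbol of every probe. They had 9 of the 25697 probes and were 6 of the 16593 genes with a probe. All 6 genes were among the 9054 that passed the detection filter, a detection p under 0.01 on at least 2 of the 14 arrays, and 8 of their 9 probes passed it.

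RNA from cells of C57BL background was measured on 14 Illumina bead arrays in 8 groups. Embryonic germ cells (EG), pluripotent lines that arise from primordial germ cells, gave 2 arrays and were not cultured in hypoxia. The embryonic germ-like lines hiEGL1 and hiEGL2, obtained by culture in hypoxia, gave 2 arrays each. Embryonic stem cells gave 2 arrays labelled ESCm, for male cells, and 2 labelled ESCf, for female cells. Epiblast stem cells, which model the later, primed stage of pluripotency, gave 1 array for line T9 (EpiT9) and 1 for line E3 (EpiE3). Primordial germ cells at 11.5 days post coitum (PGC11.5) gave 2 arrays. None of the last 5 groups was cultured in hypoxia. A characteristic of the ESCm and ESCf samples names embryonic germ cells where the titles name stem cells, and the titles were followed. The labels do not say whether replicates are separate cultures or animals, so p-values cover the spread between arrays alone, which may be technical. How the hypoxia-derived lines were derived and how the germ cells were purified is not given in the sources used here.

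Levels are log2 intensities after background correction and quantile normalization, and a difference of 1 is a doubling. A gene was called when limma's moderated test gave a Benjamini-Hochberg adjusted p under 0.05 over the genes tested. Detection, here a detection p under 0.01, reached between 29.8% and 45.4% of probes per array. The EG and hiEGL arrays differ from the other 8 in which probes they detect, so group and array cannot be told apart in a comparison across that divide. The PGC11.5 arrays correlated at r = 0.952 across genes, with 1236 genes at least 2-fold apart, against 0.994 to 0.997 in the other pairs of replicates. The summed intensity of blood, endothelial and macrophage markers was 21383 on PGC11.5 replicate 1 and 648 on replicate 2. Germ cell markers summed to 14365 and 17658 on the PGC11.5 arrays against 2945 to 3047 in ESC, and primed epiblast markers to 10086 and 16797 in the epiblast lines against 5693 to 9139. All 12 pluripotency markers were detected in EG, with sums of 50996 to 51588 against 45571 to 48015 in ESC. Of these, 4 were called higher in EG than in ESC and 6 lower, against 43.8% and 29% of all genes. That comparison lies across the divide. By itself, Pou5f1 went against the label of pluripotent cells in EG, and it was low in hiEGL too. Pou5f1, the gene of Oct4, gave signals of 261 and 282 with its brighter probe on the EG arrays and 103 to 163 on the hiEGL arrays, 1 of which did not detect it, against 10038 to 13019 on the ESC arrays. Nanog was detected on all 14 arrays. In such bulk samples, fewer cells of a type and less RNA per cell cannot be told apart.

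The promoters of 4 members called between the hypoxia-derived lines and EG are shown, while Igfbp5, also called, is given as a count. They are shown because the study's title names stabilization of the hypoxia-inducible factor HIF1 alpha. This factor binds short sites around the letters ACGTG or GCGTG. The windows run from 250 bases before to 50 after the start of the gene, are taken from RefSeq on build GRCm38.p6 and read 5′ to 3′ on the gene's own strand. Capitals mark ACGTG and GCGTG on either strand. Igfbp4 lies at chr11:99040994-99041293 on the plus strand, Igfbp6 at chr15:102143936-102144235 on the plus strand, Igfbp7 at chr5:77407996-77408295 on the minus strand, and the first of 2 listed starts of Igfbp2 at chr1:72824230-72824529 on the plus strand.
Igfbp4: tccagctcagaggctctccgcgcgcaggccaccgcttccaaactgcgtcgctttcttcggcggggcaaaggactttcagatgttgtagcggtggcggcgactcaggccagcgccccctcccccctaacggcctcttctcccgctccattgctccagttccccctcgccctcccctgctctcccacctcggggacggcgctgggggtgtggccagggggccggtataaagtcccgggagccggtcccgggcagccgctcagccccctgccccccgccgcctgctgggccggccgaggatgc
Igfbp6: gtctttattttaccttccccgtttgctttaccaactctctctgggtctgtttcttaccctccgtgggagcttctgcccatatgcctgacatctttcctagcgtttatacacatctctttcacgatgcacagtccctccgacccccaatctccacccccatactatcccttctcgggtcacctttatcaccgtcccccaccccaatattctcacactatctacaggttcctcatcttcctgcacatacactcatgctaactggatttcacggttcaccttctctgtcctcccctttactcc
Igfbp7: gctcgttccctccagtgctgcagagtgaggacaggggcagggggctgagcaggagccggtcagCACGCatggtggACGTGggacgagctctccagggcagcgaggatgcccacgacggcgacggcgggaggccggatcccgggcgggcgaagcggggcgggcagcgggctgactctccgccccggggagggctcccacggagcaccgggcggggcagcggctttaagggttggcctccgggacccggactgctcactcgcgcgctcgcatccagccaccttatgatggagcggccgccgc
Igfbp2: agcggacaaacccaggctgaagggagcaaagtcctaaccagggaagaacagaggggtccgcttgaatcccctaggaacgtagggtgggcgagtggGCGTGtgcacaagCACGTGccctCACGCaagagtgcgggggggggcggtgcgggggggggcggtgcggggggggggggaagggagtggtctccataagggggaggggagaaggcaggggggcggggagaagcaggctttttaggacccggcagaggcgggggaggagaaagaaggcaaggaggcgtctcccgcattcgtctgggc

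The Igfbp4 and Igfbp6 windows held 0 such matches, the Igfbp7 window 2 and the Igfbp2 window 4. In Igfbp2, a palindrome with ACGTG on both strands accounts for 2 of the 4. The second start of Igfbp2 had 1 match, Igfbp3 had 2 and Igfbp5 had 0. Of 32851 promoter windows of the same length, 43.8% held at least 1 of these motifs, so neither their presence nor their absence sets a member apart. TATAAA, the letters of the TATA box, occurred once in the Igfbp4 and once in the Igfbp6 window, counting both strands, and in 13.6% of all windows. The Igfbp4 window contained 27 CG pairs and the Igfbp6 window 8, where the median window had 7. Igfbp2 and Igfbp5 are neighbours on chromosome 1 with 0 protein-coding genes between them, and Igfbp3 is the neighbour of Igfbp1 on chromosome 11. A match of letters is a description of the window and does not show binding.

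The hypoxia-derived lines differed from EG at 5 of the 6 members. Igfbp4, Igfbp5, Igfbp6 and Igfbp7 were higher in hiEGL and Igfbp2 was lower, while Igfbp3 was not detected on any of these 6 arrays. Over all genes tested, 28.4% were called higher and 33.4% lower, so calls alone are common in this comparison. Igfbp6 passed the detection filter through the hiEGL arrays alone and so had to differ, and without it 4 of the other 5 were called. The median difference of the 6 members was 1.89 against -0.04 for all genes, given as a description. Markers of other cell types moved with these groups, and their values are given after the members.

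Igfbp4, whose protein mostly restrains IGF action until the protease PAPPA cuts it, had the largest difference of the members in this comparison. Its brighter probe (ILMN_1258988) gave scanner signals of 205 and 216 on the EG arrays, 4301 and 4321 on the hiEGL1 arrays, and 3245 and 3212 on the hiEGL2 arrays. In log2 intensity these were 7.25 and 7.39 in EG, 12.94 and 12.84 in hiEGL1, and 13.41 and 13.47 in hiEGL2. The 4 hiEGL arrays lay far above both EG arrays and did not overlap them. The difference was 5.84 ± 0.44 (SE; n = 4 and 2), or 57.4-fold, with a limma adjusted p of 1.22e-06. The other probe (ILMN_2694955) rose as well, by 4.44 ± 0.44 or 21.7-fold (limma adjusted p = 1.06e-05). The probes thus shared the direction and differed in size by more than 1.5 times.

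Igfbp6, whose protein prefers IGF2 over IGF1, was detected on the hiEGL arrays and nowhere else in the study. Its single probe (ILMN_2689790) gave 7.26 and 7.20 in hiEGL1 and 7.36 and 7.35 in hiEGL2, against 4.33 and 4.35 in EG, where it was not above background. The hiEGL level was at least 2.77-fold that of EG, a lower bound that sets the mean of the detected arrays against the faintest detected signal of the dim ones. No p is given, since the gene entered the test through the group in which it was high. Its hiEGL signals ran from 136 to 187, so this is a faint gene even where it was detected.

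Igfbp7, a matrix-associated member with weak affinity for IGF that is known from vascular endothelium, was already bright in EG. The brighter probe (ILMN_2764588) gave 11.32 and 11.21 in EG, 12.91 and 12.83 in hiEGL1, and 13.22 and 13.28 in hiEGL2. All hiEGL arrays exceeded both EG arrays, by 1.79 ± 0.09 (SE), or 3.47-fold, with a limma adjusted p of 1.01e-07. Its second probe (ILMN_2634286) was not detected on any of the 14 arrays and therefore gives no second reading.

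Igfbp5, a member that binds extracellular matrix and bone mineral, was 3.98-fold higher in hiEGL (1.99 ± 0.61, SE; limma adjusted p = 0.0161). The levels (ILMN_2964324) were 6.17 and 6.15 in EG, 8.04 and 7.91 in hiEGL1, and 8.44 and 8.24 in hiEGL2. The groups did not overlap, yet the call was lost without either EG array (adjusted p = 0.0782 without replicate 1 and 0.0799 without replicate 2) and when the line was a random block (adjusted p = 0.275). The spread shared by all groups in this test includes the PGC11.5 arrays, on which the gene read 9.31 and 6.24.

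Igfbp2, abundant in embryonic and fetal tissue and able to bind integrins through an RGD motif, fell. Its brighter probe (ILMN_2930897) gave scanner signals of 672 and 709 in EG, 163 and 178 in hiEGL1, and 128 and 124 in hiEGL2. In log2 intensity the EG arrays read 9.44 and 9.55, hiEGL1 6.89 and 7.06, and hiEGL2 6.99 and 7.01. Every hiEGL array was detected and lay below both EG arrays. The difference was -2.51 ± 0.16 (SE), a level 5.68-fold lower in hiEGL (limma adjusted p = 3.7e-07). The other Igfbp2 probe (ILMN_1236788) was not detected on any of the 6 arrays, though it was bright on those of ESC, and with the mean of both probes the difference was -1.39.

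**Figure D1:**
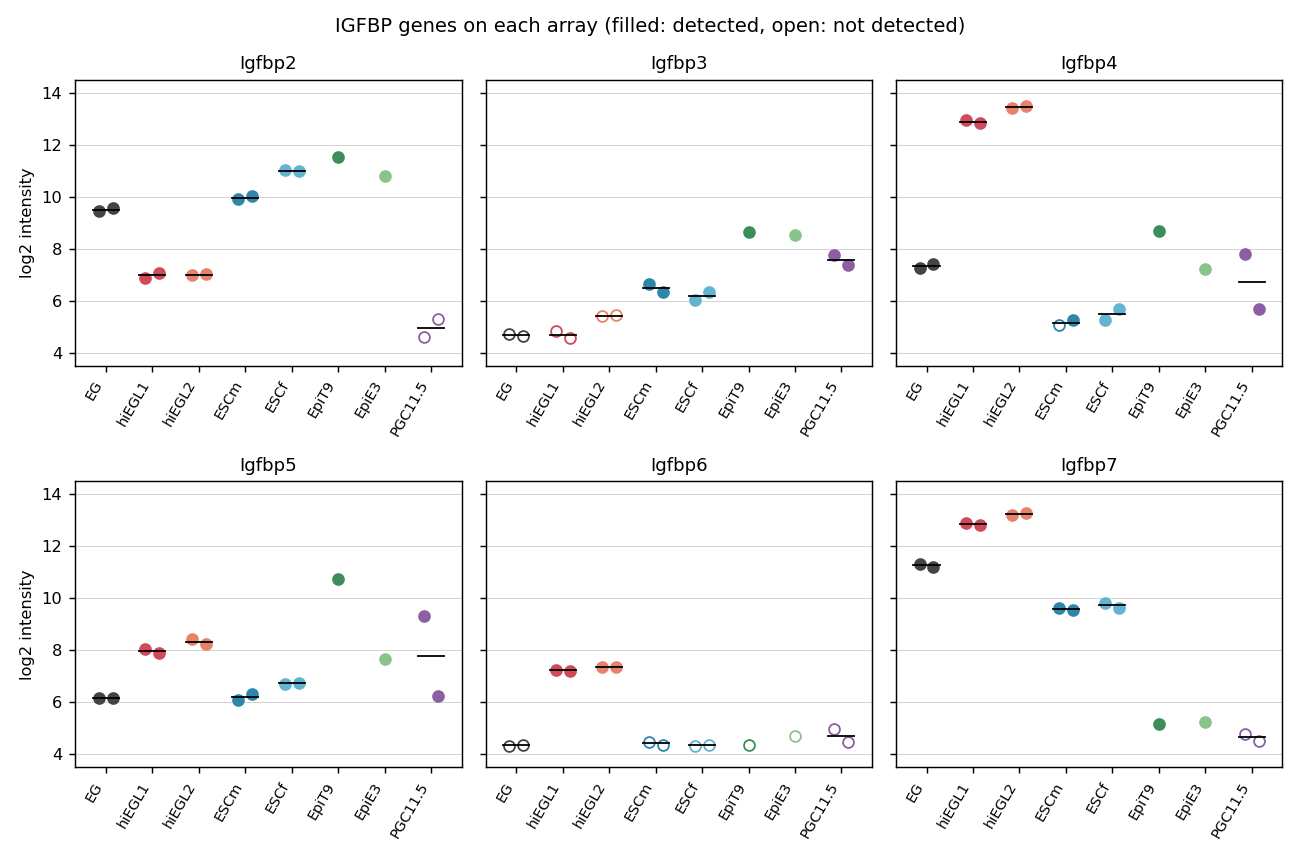
Log2 intensity of the brighter probe of each member on each of the 14 arrays, by group (filled, detected; open, not detected; horizontal bars, means of groups with 2 arrays). Igfbp4, Igfbp6 and Igfbp7 were highest on the 4 hiEGL arrays, Igfbp2 lay between 6.89 and 7.06 there against 9.44 and 9.55 in EG, and the PGC11.5 arrays lay apart for Igfbp4 and Igfbp5.

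Between hiEGL2 and hiEGL1, 2 of the 6 members were called higher and 0 lower, against 13.9% of all genes called higher and 16% lower, so the count is no result about the members. A fit to these 4 arrays alone, or without either PGC11.5 array, called 4 of the 6. Igfbp7 was 1.30-fold higher in hiEGL2 (0.38 ± 0.11, SE; limma adjusted p = 0.0244), with no overlap of the arrays. Leaving out any 1 of the 4 hiEGL arrays ended that call, with adjusted p from 0.0780 to 0.146, and so did the authors' values (0.269). The other call, Igfbp3, compares readings of 5.41 and 5.44 with 4.81 and 4.57, all of them not above background. Igfbp4 differed by 0.55 ± 0.50 (adjusted p = 0.48) and Igfbp5 by 0.37 ± 0.71 (adjusted p = 0.774), although their arrays did not overlap. The other Igfbp4 probe read 9.76 on both hiEGL1 arrays and 10.81 and 10.80 on those of hiEGL2, a 2.07-fold difference without overlap that was not called (1.05 ± 0.51, limma adjusted p = 0.177). In the fit to the 4 hiEGL arrays alone, the brighter Igfbp4 probe and Igfbp5 had limma adjusted p of 0.000291 and 0.0124. Their differences of 0.55 and 0.37 rest on the hiEGL arrays, so leaving out a PGC11.5 array could alter only the shared spread and the p. Igfbp2 and Igfbp6 differed by 0.02 and 0.13 and were not called.

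Other genes of the IGF system differed as well. In hiEGL against EG, 22 of the 39 pathway genes measured were called higher and 9 lower, with a median difference of 0.79, beside 28.4% and 33.4% of all genes. Under the line as random block 17 of them were called, while the calls over all genes went from 5598 to 2895. Both ligands that passed the detection filter rose. Igf2, an imprinted fetal growth factor, gave signals of 568 and 617 in EG, 9218 and 10059 in hiEGL1, and 6520 and 6594 in hiEGL2. That is a difference of 4.93 ± 0.61 (SE), or 30.4-fold (limma adjusted p = 4.76e-05), with no overlap. Igf1 was detected on the 4 hiEGL arrays and not in EG, at a level at least 3.38-fold higher (limma adjusted p = 3.75e-06). Igf2r, the receptor that takes up IGF2 for breakdown, rose 5.15-fold (2.36 ± 0.12, SE). The signalling receptor Igf1r was called higher and counts among the 22, but it was not above background in either group. Its call is a difference between background readings. Ins2, Insr and Insrr did not pass the detection filter, and neither did Igfbp1.

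Relatives with an IGFBP-type domain, or that act with the family, went both ways, 7 higher and 3 lower of 10. Of all genes, 28.4% were called higher and 33.4% lower. Ccn5, a secreted matricellular protein, was 17.0-fold higher in hiEGL, and Ccn4 was 5.25-fold higher. Htra3, a secreted serine protease, and Esm1, an endothelial proteoglycan, were detected in hiEGL and not in EG, and were at least 2.73-fold and 2.13-fold higher. Igfals, the acid-labile subunit that holds IGF in a complex with IGFBP3 in blood, was 4.16-fold lower. Ccn2, connective tissue growth factor, was 3.36-fold lower. Igfbpl1 was called, but it was not above background in either group.

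Of 8 proteases and stanniocalcins that passed the filter, 6 rose and 0 fell, against 28.4% and 33.4% of all genes. The matrix metalloproteases Mmp2 and Mmp9 were 23.4-fold and 13.3-fold higher, and Mmp3 was at least 8.39-fold higher. C1s2, a complement protease gene, was at least 2.21-fold higher. Where Igf1, Htra3, Esm1, Mmp3 or C1s2 passed the filter through hiEGL arrays alone, its call was fixed and gives no support. Ctsd, the lysosomal protease cathepsin D, was called with an adjusted p of 0.0485, and the call did not hold under several alternatives, among them the replicate number as a block (0.0554). Of the 15 genes of the signalling chain, 5 rose, 4 fell and 6 were not called, beside the same shares of all genes. Eif4ebp1, a repressor of translation that mTOR inactivates, was 1.82-fold lower. Igf2bp3, an RNA-binding protein that acts on Igf2 transcripts, was 2.02-fold lower.

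**Figure D2:**
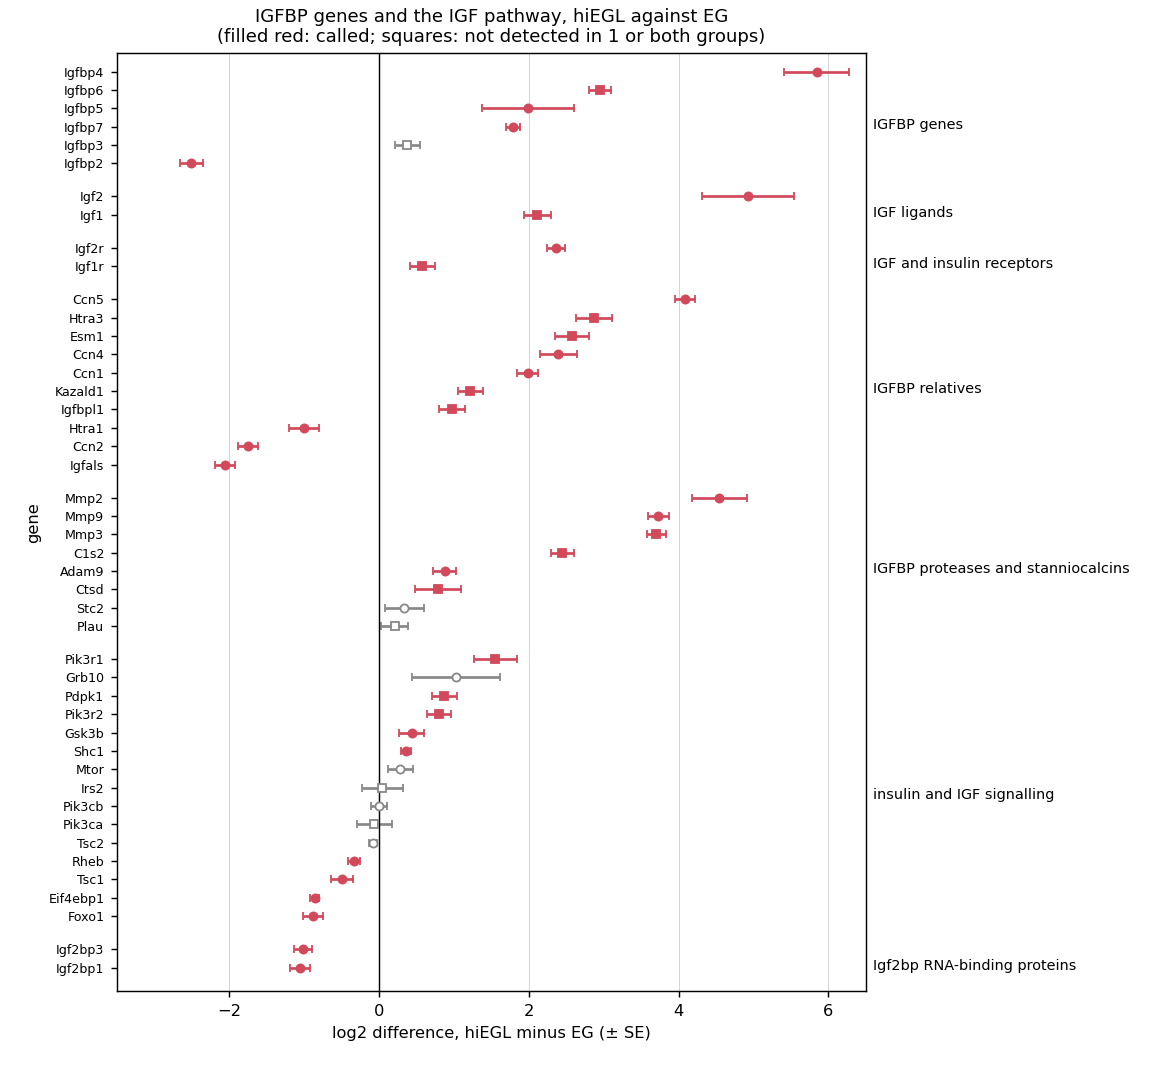
Log2 difference between hiEGL and EG with its SE for the 6 members and 39 other genes of the IGF system, grouped by role (filled red, called; squares, not detected in 1 or both groups). Igfbp4 and Igf2 lie farthest to the right at 5.84 and 4.93, and Igfbp2 farthest to the left at -2.51.

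Markers of other cells moved with hiEGL, in a comparison that called 28.4% of all genes higher and 33.4% lower. Of 19 fibroblast markers 17 were called higher and 0 lower, and their summed intensity was 32643 to 36166 on the hiEGL arrays against 8929 to 9453 on the EG arrays. Col1a1, Pdgfrb, Lum, Dcn and 4 others were not detected in EG, whereas 19 of 19 were detected on at least 1 hiEGL array. Lum gave signals of 107 to 115 there, and was detected on the hiEGL2 arrays alone. Col5a2, Col6a2, Pdgfrb, Lum and S100a4 passed the detection filter through hiEGL arrays alone. Any call of these genes, and their detection in hiEGL, therefore gives no support. Markers of primitive endoderm and trophectoderm were called higher for 14 of 17 and lower for 1, with sums of 18772 to 19759 against 5293 to 5533. Among them, Afp and Tfap2a were detected on hiEGL arrays alone, so any call of theirs was fixed by the filter. Gonadal somatic markers were called higher for 4 of 6 and lower for 1, with sums of 3283 to 3820 against 297 to 306, and Nr5a1, Gata4 and Amh were not detected. Blood, endothelial and macrophage markers were called higher for 5 of 10 and lower for 1, with sums of 1421 to 1581 against 653 to 660, and Ptprc was not detected. Cdh5 and Cd34 were likewise detected on hiEGL arrays alone. All 12 pluripotency markers were called lower, with sums of 15703 to 22762 against 50996 to 51588. The part of these markers' cells in the levels of Igfbp4, Igfbp5, Igfbp6 and Igfbp7 was not tested.

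Epiblast stem cells differed from embryonic stem cells at 5 of the 6 members, 4 higher and 1 lower, against 34.5% and 28.4% of all genes. The median difference of the members was 1.47, and that of all genes 0.07. Each epiblast line is a group of 1 array in the fit, so SE and p here leave out the gap between the lines. The change with the smallest error was in Igfbp7, which read 5.16 in EpiT9 and 5.25 in EpiE3, against 9.62 and 9.55 in ESCm and 9.84 and 9.65 in ESCf. Both epiblast lines lay far below all 4 ESC arrays. The level was 22.0-fold lower (-4.46 ± 0.09, SE; limma adjusted p = 2.74e-10), although detection still held on both epiblast arrays.

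Igfbp3, the main carrier of IGF in the blood, read 8.65 in EpiT9 and 8.52 in EpiE3, against 6.65 and 6.31 in ESCm and 6.02 and 6.31 in ESCf. The epiblast lines lay within 0.13 of each other and exceeded every ESC array, for a 4.78-fold higher level (2.26 ± 0.17, SE; limma adjusted p = 1.54e-06). Igfbp4 read 8.68 in EpiT9 and 7.22 in EpiE3, against 5.05 and 5.25 in ESCm and 5.26 and 5.69 in ESCf. It was 6.20-fold higher (2.63 ± 0.44; limma adjusted p = 0.000419), although 1 ESCm array did not detect it. The difference was 1.90 without EpiT9 and 3.36 without EpiE3. Its other probe, detected on 1 of 4 ESC arrays, gave 7.55-fold (limma adjusted p = 0.000237).

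Igfbp5 separated the epiblast lines from each other. It read 10.76 in EpiT9 and 7.66 in EpiE3, with scanner signals of 1720 and 249, against 6.10 to 6.76 on the ESC arrays. Over both lines it was 6.67-fold higher (2.74 ± 0.61; limma adjusted p = 0.00286), and the difference was 1.19 without EpiT9 and 4.29 without EpiE3. The call was lost under the line as random block (limma adjusted p = 0.0675). Fibroblast markers summed to 4638 in EpiT9 and 1331 in EpiE3, and gonadal somatic markers to 1079 and 275, and their part was not tested. Igfbp2 read 11.54 and 10.79 in the epiblast lines, within reach of the ESCf arrays at 11.01 and 10.97, so that its call (0.69 ± 0.16; limma adjusted p = 0.00336) came with overlapping arrays. It was lost without EpiT9 (0.31, adjusted p = 0.234), under the line as random block (0.157) and with the authors' values (0.116). The other probe of Igfbp2 did not overlap and was 2.92-fold higher in the epiblast lines (adjusted p = 0.000478). Igfbp6 was not above background in either cell type.

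In the wider pathway 13 of 39 genes were called higher and 10 lower in epiblast stem cells, near the shares of all genes (34.5% and 28.4%). Grb10, an adaptor that restrains insulin and IGF receptors, was 12.0-fold higher, and Stc2, a stanniocalcin that inhibits PAPPA, was 5.26-fold higher. Mmp2 was 5.57-fold higher and Igf1r 2.70-fold, the latter detected on only 1 of 4 ESC arrays. Igf2 gave signals of 2037 in EpiT9 and 299 in EpiE3, and it was not called.

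Between the embryonic stem cell lines, 1 member was called higher in ESCf and 0 lower, against 10.2% and 9.09% of all genes. Igfbp2 read 11.01 and 10.97 in ESCf and 9.90 and 10.03 in ESCm, a 2.04-fold difference (1.03 ± 0.18, SE; limma adjusted p = 0.00373). The arrays did not overlap, and the other probe gave 1.98-fold (adjusted p = 0.0494). With the authors' values the difference was 1.01 with an adjusted p of 0.121. Without either PGC11.5 array, Igfbp4 and Igfbp5 were called too, with differences of 0.33 and 0.51. The other Igfbp4 probe went the opposite way, by -0.36, and was not detected in ESCf, so no direction is given for Igfbp4 here.

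In primordial germ cells 2 members were higher and 2 lower than in embryonic stem cells, against 33.9% and 34.6% of all genes. Scaling the arrays to a common median made this 4 higher and 2 lower, and it moved the median difference of all genes from -0.02 to 0.73. Igfbp7 read 4.79 and 4.51 in PGC11.5, not above background, against 9.55 to 9.84 in ESC. Its level was at least 14.0-fold lower (limma adjusted p = 1.72e-10). Igfbp2 read 4.59 and 5.27 with its brighter probe, also not above background, against 9.90 to 11.01, and was at least 24.7-fold lower (limma adjusted p = 2.1e-09). Its other probe was detected on both PGC11.5 arrays, at 7.23 and 6.01, and was 15.6-fold lower than in ESC. The brighter probe is named for its mean over all arrays of the study, and in PGC11.5 it was the dimmer one.

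Igfbp3 was higher in the germ cells, at 7.74 and 7.36 against 6.02 to 6.65 in ESC, without overlap. The difference was 1.23 ± 0.17 (SE), or 2.34-fold (limma adjusted p = 9.28e-05). Igfbp4 read 7.79 on replicate 1 and 5.66 on replicate 2, and the second value fell within the ESC range of 5.05 to 5.69. Its call (1.41 ± 0.44; limma adjusted p = 0.0151) was lost under the line as random block (0.217) and in a fit to the PGC11.5 and ESC arrays alone (0.0711). The difference was 0.34 without replicate 1 and 2.48 without replicate 2. The other probe read 8.207 and 6.002 in PGC11.5 against 4.51 to 5.05 in ESC, where 1 of 4 arrays detected it, and was 5.29-fold higher without overlap (limma adjusted p = 0.000709). Igfbp5 was not called at 1.30 ± 0.61 (adjusted p = 0.0828), and its sign depended on the array. The difference was 2.84 from replicate 1 alone (adjusted p = 6.69e-12) and -0.23 from replicate 2 alone, where the lone array is assumed to vary like the other groups. Replicate 1 is the array with the high blood, endothelial and macrophage sum, and its fibroblast markers summed to 5200 against 844 on replicate 2. Their part in Igfbp4 and Igfbp5 was not tested.

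**Figure D3:**
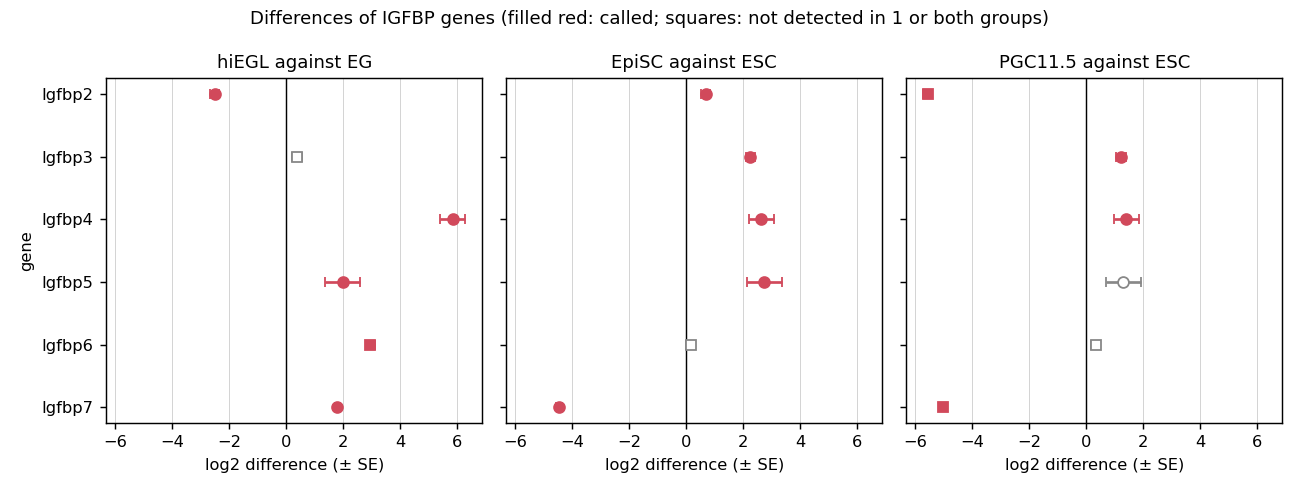
Log2 difference with its SE for each member between hiEGL and EG, between epiblast and embryonic stem cells, and between PGC11.5 and embryonic stem cells (filled red, called; squares, not detected in 1 or both groups). Igfbp7 was higher in hiEGL by 1.79 and lower in epiblast stem cells and germ cells, the latter 2 sharing the ESC arrays.

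In the same contrast 15 of the 39 pathway genes were called higher and 10 lower, beside 33.9% and 34.6% of all genes, and 25 and 7 after scaling to a common median. Igfbpl1, a relative of the family with a single IGFBP-type domain, was detected in PGC11.5 and not in ESC, at least 7.07-fold higher (limma adjusted p = 7.72e-08). Mtor, the kinase that links IGF signals to growth, was 9.50-fold higher and Foxo1, a transcription factor held back by that pathway, 6.76-fold higher. Eif4ebp1 was 4.80-fold lower and Igf2bp1 6.79-fold lower. Igf2 was called higher at 3.40-fold (1.77 ± 0.61; limma adjusted p = 0.0253), a call lost when the PGC11.5 and ESC arrays were fitted alone (0.0893) and under the line as random block (0.298).

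The remaining 3 comparisons lie across the array divide, and they share the EG, hiEGL and PGC11.5 arrays with those above. EG had 2 members higher and 2 lower than ESC, against 43.8% and 29% of all genes, whose median difference was 0.21. Igfbp7 was 3.04-fold higher in EG (1.61 ± 0.09, SE; limma adjusted p = 1.33e-07) and Igfbp4 4.02-fold higher (2.01 ± 0.44; limma adjusted p = 0.00196). The other Igfbp4 probe gave 2.20-fold (limma adjusted p = 0.0405). The Igfbp4 and Igfbp2 calls were both lost under the line as random block (0.0729 and 0.0712). Igfbp3 was not above background in EG and was at least 1.42-fold lower. Igfbp2 was 1.98-fold lower by its brighter probe and at least 27.1-fold lower by the other. The other probe read 4.54 and 4.74 in EG, not above background, where the brighter one read 9.44 and 9.55. It was not detected on any hiEGL array either, and so gives no second support for the direction.

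Against PGC11.5, EG had 2 members higher and 1 lower (44.3% and 28.1% of all genes), and hiEGL had 4 higher and 1 lower (45.1% and 32.1%). Scaling to a common median left 2 higher and 3 lower in the first and 4 and 1 in the second, while it moved the median of all genes from 0.26 to -0.71 and from 0.22 to -0.40. The higher members include Igfbp2 in both comparisons by its brighter probe, and without Igfbp2 the counts are 1 higher and 1 lower in EG and 3 higher and 1 lower in hiEGL. Igfbp7 was at least 42.6-fold higher in EG and at least 148-fold higher in hiEGL, and Igfbp3 was at least 3.32-fold and 3.05-fold lower. Igfbp4 was 86.7-fold higher in hiEGL, with limma adjusted p = 2.3e-07, and 9.04-fold by its other probe. Its log2 difference of 6.44 was 7.51 without PGC11.5 replicate 1 and 5.37 without replicate 2. Igfbp6 was at least 2.71-fold higher in hiEGL. It passed the detection filter through the hiEGL arrays alone and so had to be higher, and both hiEGL counts include it.

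The probes of Igfbp2 contradicted each other against the germ cells. The brighter one was at least 12.4-fold higher in EG and at least 2.19-fold higher in hiEGL than in PGC11.5, where it was not detected. The other was detected in PGC11.5 alone and was at least 1.74-fold lower in EG and at least 1.60-fold lower in hiEGL. No direction is therefore given for Igfbp2 against PGC11.5. For Igfbp4 in EG and Igfbp5 in hiEGL the sign depended on which PGC11.5 array was used. The other Igfbp4 probe was 2.41-fold lower in EG than in PGC11.5 (limma adjusted p = 0.0469), whereas the brighter one was not called (0.59, adjusted p = 0.308). Igfbp4 in EG was 1.66 higher without replicate 1 and read -0.47 without replicate 2, and Igfbp5 in hiEGL was 1.92 higher without replicate 1 and read -1.16 without replicate 2.

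**Figure D4:**
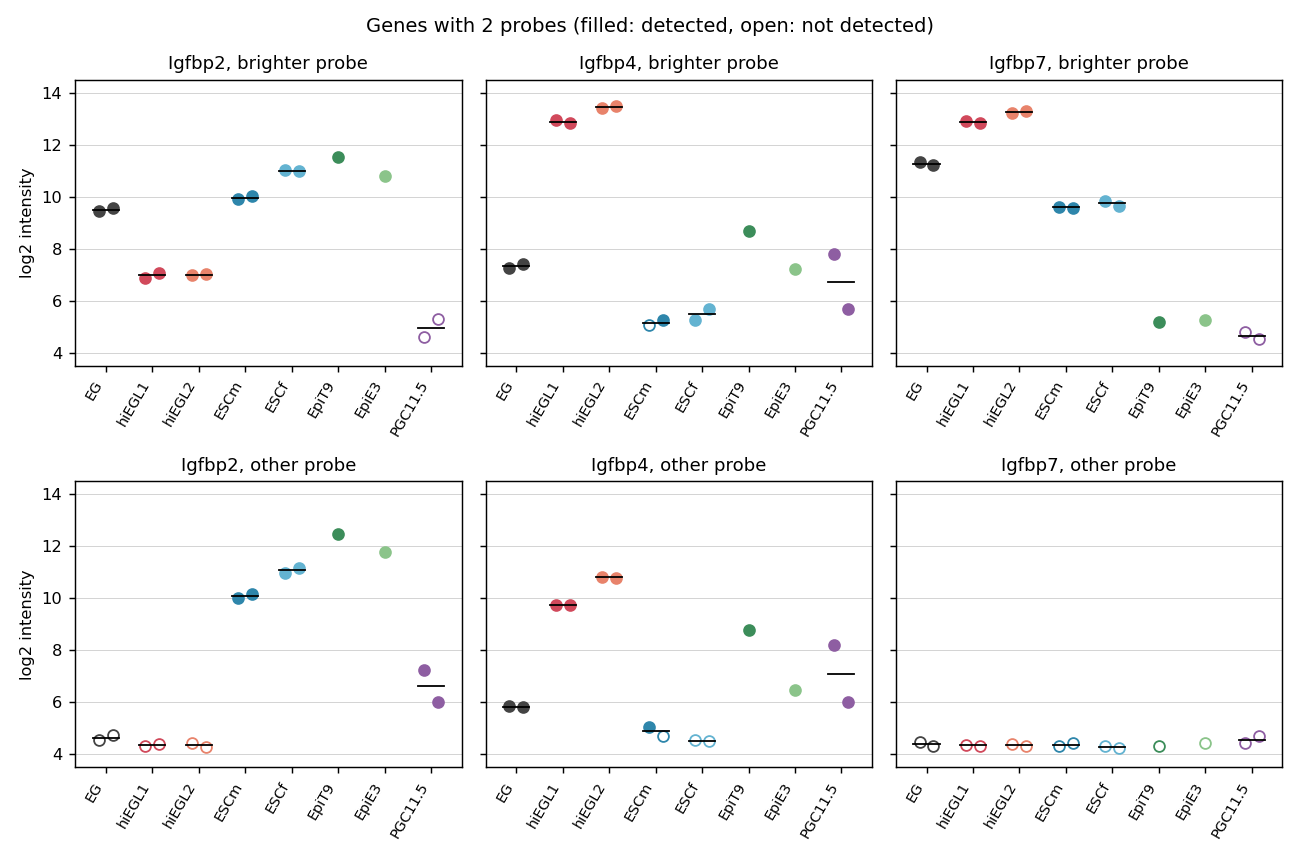
Log2 intensity of both probes of Igfbp2, Igfbp4 and Igfbp7 on each array, by group (filled, detected; open, not detected; bars, means of groups with 2 arrays). The probes of Igfbp2 disagree for EG, hiEGL and PGC11.5 and those of Igfbp4 follow the same order of hiEGL over EG, while the second Igfbp7 probe was not detected on any array.

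Each member had its own order of levels over the 8 groups, given from highest to lowest mean and only between readings of the same probe. By its brighter probe Igfbp2 ran from EpiT9 through ESCf, EpiE3, ESCm, EG, hiEGL2 and hiEGL1 to PGC11.5, and its gap between the hiEGL lines, 0.02, was below their larger SD of 0.12. The other Igfbp2 probe placed PGC11.5 (6.62) above EG (4.64) and hiEGL (4.36), both not above background, and EpiE3 (11.79) above ESCf (11.08). Igfbp3 ran from EpiT9 and EpiE3 through PGC11.5, ESCm and ESCf to hiEGL2, hiEGL1 and EG, the last 3 not above background. By its brighter probe Igfbp4 ran from hiEGL2 and hiEGL1 through EpiT9, EG, EpiE3 and PGC11.5 to ESCf and ESCm. Neither EpiE3 nor ESCf differed from PGC11.5 beyond the SD of 1.51 between the germ cell arrays. The other Igfbp4 probe placed PGC11.5 (7.10) above EpiE3 (6.47) and EG (5.84), and ESCm (4.88) above ESCf (4.52).

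Igfbp5 ran from EpiT9 through hiEGL2, hiEGL1, PGC11.5, EpiE3, ESCf and ESCm to EG. Its PGC11.5 mean did not differ from those of hiEGL1 and EpiE3 beyond an SD of 2.17, nor ESCm from EG beyond 0.16. Igfbp6 had an order only in the hiEGL lines, being not above background in the other 6 groups. Igfbp7 ran from hiEGL2 and hiEGL1 through EG, ESCf, ESCm, EpiE3 and EpiT9 to PGC11.5. The epiblast lines have 1 array each, so the gaps between them of 0.13 for Igfbp3 and 0.09 for Igfbp7 have no spread to be set against.

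Over the 14 arrays, Igfbp4 and Igfbp6 followed the most similar courses within the family (Pearson r = 0.95), and Igfbp3 and Igfbp7 the most opposed (r = -0.91). Igfbp6 was detected on the 4 hiEGL arrays alone, so its correlations mostly restate the gap between hiEGL and the other groups. Among all genes tested, the closest to Igfbp4 was Mmp2 (r = 0.992), followed by Sh3pxd2b and Grina. Igfbp6 was closest to Serpina3n (r = 0.997), Gimap6 and Casp4, with lower rank correlations (Spearman) of 0.719, 0.785 and 0.741. Igfbp7 was closest to Acadsb (r = 0.988), Adam9 and Sharpin. Igfbp2 was closest to Eif2s2 (r = 0.971), Ppp1r1a and Etv2. Igfbp3 was closest to Ssbp3, Dele1 (both r = 0.971) and Tspyl1, and Igfbp5 to Irx3 (r = 0.952), Efna5 and Pkdcc. These correlations describe 8 groups on 14 arrays, share the array divide and the pairs of replicates, and carry no test.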

How the data were processed

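Probe signals and detection p-values of 25697 probes on 14 arrays were used. Per the file headers, the authors deposited for each array an unlogged probe intensity and a detection p-value, and a second deposited table gives normalized log2 values, which served as an alternative. BeadStudio 3.2, RMA and lumi are named in the submitters' processing notes, without order or settings. Per the labels' protocols, 300 ng of RNA was amplified, with in vitro transcriptions of 18 h and 12 h both described, and which array had which is not given in the sources used here.

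Signals were background-corrected and quantile normalized by neqc (offset 16; limma 3.58.1 under R 4.3.3). A gene took its probe with the highest mean, out of 23978 probes with 1 gene listed, and 1719 probes without a gene were left out. A mean for each of 8 groups was fitted in limma over all arrays, with 6 residual degrees of freedom, and hiEGL, ESC and EpiSC (both epiblast lines) are equal-weight means of their lines. SE is limma's moderated standard error and SD the spread between arrays. The number of arrays limits the precision. A fold marked "at least" sets the bright group's mean against, per dim array, the higher of the lowest detected signal and the probe's own value.

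Named genes were the 6 members, the ligands, receptors, Igfbp1, Igfbpl1 and Igfals, up to 4 genes with the largest called change of each pathway list, and the 3 genes most correlated with each member. Ccn2 and Ctsd in hiEGL against EG were named outside that rule, after their values were seen. The pathway lists held 68 genes, of which 39 were measured. The members, gene lists and tests were chosen with earlier results of these data known. The alternatives were 12 settings and leaving out each of the 14 arrays. Titles' replicate numbers did not pair arrays, since deviations of same-numbered arrays correlated at -0.03 to 0.03 over 15 pairs of groups. The procedure was tested on simulated data. Python 3.11.15 made the tables with pandas 2.3.3 and numpy 2.4.6, and matplotlib 3.10.9 drew the figures.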

Additional observations from a re-analysis of the deposited data

Results flagged for a closer look

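Igfbp3 and Igfbp7 stood out because their difference from EG was not the same in the 2 hypoxia-derived lines. This was read from the limma contrast of hiEGL2 with hiEGL1, in which the EG arrays cancel out. Igfbp7 was higher in hiEGL2 by 0.3775 on the log2 scale, with both its arrays above both of hiEGL1 (limma adjusted p = 0.0244), and the call was lost when any 1 of these 4 arrays was left out. Igfbp3 differed by 0.731, but it was not above background on any of the 4 arrays, so this is a difference between background readings.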

How the results depend on the processing

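Of 1230 recalculated member differences, 1159 kept their direction and side of the threshold, 29 lost the call, 32 gained one and 10 changed sign. In many of these the difference could not change, as when the array left out was not among those compared. There only the shared spread and the p could move, so these counts do not measure stability. In hiEGL against EG 148 of 156 kept both, and Igfbp2, Igfbp4 and Igfbp7 kept their calls in every setting. Igfbp6 did so too, which is no support, since it passed the detection filter through the hiEGL arrays alone. Where a call was involved, the sign changed for Igfbp2 in hiEGL against PGC11.5 with the mean of a gene's probes (-0.10), and, without PGC11.5 replicate 2, for Igfbp4 in EG (-0.47) and Igfbp5 in hiEGL (-1.16) against PGC11.5, which were 1.66 and 1.92 without replicate 1. Between values not called it changed for Igfbp4 with the mean of probes in EG against PGC11.5 (-0.34) and ESCf against ESCm (-0.017), for Igfbp5 in PGC11.5 against ESC without PGC11.5 replicate 1 (-0.23, and 2.84 without replicate 2), and for Igfbp2 in hiEGL2 against hiEGL1 without single arrays (-0.061 to 0.110). Igfbp6 did so with median scaling in ESCf against ESCm (0.069) and EG against ESC (0.76), and in EpiSC against ESC without single arrays (-0.014 to 0.323). The cause was not tested. The 2 members called in hiEGL2 against hiEGL1 became 1 with the authors' values, no background correction, median scaling, an offset of 50 or the mean of probes, 4 in a fit to only the compared arrays and 0 at 2-fold. Leave-one-out counts ran from 0 to 4. For ESCf against ESCm the count of 1 became 0 with the authors' values and 2 with only the compared arrays, and ran from 1 to 3 without single arrays. For EpiSC against ESC 5 became 3 with the line as a random block, and 3 to 5 without single arrays. For EG against ESC 4 became 2 with that block. For EG against PGC11.5 3 became 5 with median scaling, and ran from 3 to 6 without single arrays. Pathway calls moved in hiEGL against EG from 31 to 17 with the line block and 19 at 2-fold. In hiEGL2 against hiEGL1 they moved from 11 to 7 (authors' values, median scaling or no filter), 18 (compared arrays) and 3 (2-fold), and ran from 4 to 17 without single arrays. They moved from 6 to 1 at 2-fold in ESCf against ESCm (3 to 13 without single arrays), from 23 to 15 at 2-fold in EpiSC against ESC, from 27 to 15 with the line block and 15 at 2-fold in EG against ESC, and from 30 to 19 with the line block in EG against PGC11.5. The replicate number as a block, over 12 arrays, left all 42 member differences it could give on their side of the threshold, with 5 members called in hiEGL against EG and 30 pathway genes in place of 31. Median scaling moved the median of all genes in hiEGL against EG from -0.04 to 0.38, and the share of higher calls from 45.9% to 62.1%. In hiEGL2 against hiEGL1 that share went from 46.6% to 63.1%, in PGC11.5 against ESC from 49.5% to 73.5%, and in EG and hiEGL against PGC11.5 from 61.2% to 30.5% and from 58.4% to 38.0%. Groups of 1 or 2 arrays, and signals near background for Igfbp3 and Igfbp6, limit all of these.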
